A study of Bos indicus with 72 samples.

Results

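RNA of the pituitary gland was sequenced from post-pubertal and pre-pubertal heifers of the Brahman breed (Bos indicus). The pituitary libraries were 12 of the 72 in the series, chosen by the labelled tissue, with 6 from post-pubertal and 6 from pre-pubertal heifers and 1 library per animal. The study sampled 6 tissues of the same 12 animals and concerns pubertal development. The labels used give breed, animal number, tissue and status, and no age, cycle stage or treatment. Animals 2054 (pre-pubertal) and 2059 (post-pubertal) carry the opposite status in the liver and uterus labels, so the test of puberty is also given without both. No source used here states whether the 2 lobes of the gland were separated.

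The anterior lobe of the pituitary makes the peptide hormones of growth, lactation, reproduction and the adrenal and thyroid axes, each in its own secretory cell type, and the posterior lobe releases hormones carried there from the hypothalamus. At puberty, pulses of gonadotropin-releasing hormone from the hypothalamus drive the gonadotrope cells of the anterior lobe to secrete luteinising and follicle-stimulating hormone, which act on the ovary. Secretory cells of this kind are known for devoting much of their messenger RNA to a few hormone genes. The files identify genes by Ensembl cattle identifiers alone, and 0 of the 24616 identifiers matched the annotation at hand. Genes are therefore given by identifier, with no name or role, and the tissue label could not be checked against hormone genes.

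Reads counted in genes lay between 4.87 and 9.76 M (mega-reads) in post-pubertal libraries and between 4.43 and 7.11 M in pre-pubertal libraries. They made up 31.6% to 37.4% of all reads in post-pubertal and 32.2% to 37.7% in pre-pubertal libraries. Reads in no annotated gene took 55.3% to 60.6% over all 12. At least 1 read was found for 19339 genes in some library and for 14501 in every library. File names divide the libraries into 2 sets of 6, each holding both statuses, and no label calls them a batch.

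A single gene dominated the pituitary reads of every animal. ENSBTAG00000015274 ranked first in 12 of 12 libraries and took a mean of 16.4% of the gene reads. In post-pubertal heifers its share was 11.3% in animal 2047, 5.68% in 2056, 35.2% in 2057, 14.4% in 2059, 16.3% in 2061 and 13.6% in 2064. In pre-pubertal heifers it was 20.6% in animal 2046, 16.7% in 2048, 29.2% in 2049, 12.4% in 2054, 12.9% in 2055 and 8.91% in 2060. The groups overlapped almost fully, with both the highest and the lowest share in post-pubertal animals. The mean was 16.1 ± 10.04% after puberty and 16.8 ± 7.29% before it (SD, n = 6 each), a difference of -0.71 percentage points (two-sided exact permutation test over all splits, p = 0.885). Within library set 1 the difference was -1.46 points and within set 2 it was 0.0438 points. No direction can be read from it: leaving out 1 animal gave -4.52 points without post-pubertal 2057 (exact permutation p = 0.268), and values above 0 without post-pubertal 2047 (0.255) or 2056 (1.37) or pre-pubertal 2046 (0.0524) or 2049 (1.78).

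The second gene was steadier. ENSBTAG00000017220 took a mean of 5.67% and ranked second in 11 of 12 libraries. Its share ran from 3.40% through a median of 5.45% to 8.13% in post-pubertal heifers and from 4.33% through 5.67% to 7.17% in pre-pubertal heifers, so the groups overlapped. Over all libraries its coefficient of variation (SD over mean) was 22.4%, against 50.9% for the first gene.

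ENSBTAG00000007897, ranked 3, varied most among the 10. Its share ran from 1.30% through a median of 3.09% to 5.58% in post-pubertal heifers and from 0.549% through 2.37% to 4.47% in pre-pubertal heifers. The lowest share was in pre-pubertal animal 2055 and the highest in post-pubertal animal 2064, and its coefficient of variation was 54.4%. Because a share falls when another gene takes more reads, each gene was also expressed per read outside the 10 most abundant genes. On that scale the range between libraries was 9.05-fold for the first gene, 1.99-fold for the second and 10.98-fold for the third. The levels of these 3 genes were not detectably related across the 12 animals on that scale. Pearson's r was 0.05 between the first and second (permutation p = 0.891), 0.23 between the first and the third (permutation p = 0.465) and 0.49 between the second and the third (permutation p = 0.106). Spearman's rho was 0.21, 0.31 and 0.59 for the same pairs, in that order (permutation p = 0.515, 0.316 and 0.0492). No p adjusted over both measures of the 3 pairs was under 0.295. Without the 2 animals farthest from the median, r was 0.06, 0.07 and 0.46. Within set 1 the values of r were 0.11, 0.24 and 0.26, and within set 2 they were 0.36, 0.95 and 0.55. The 0.95 in set 2, between the first and the third gene, was far from the 0.24 in set 1.

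The other 7 of the 10 most abundant genes each took between 0.339% and 1.70% of the reads on average. ENSBTAG00000043561 ranked 4, with a mean of 1.74 ± 0.24% in post-pubertal and 1.66 ± 0.29% in pre-pubertal heifers (SD, n = 6 each). ENSBTAG00000003212 ranked 5, with 1.32 ± 0.36% and 1.34 ± 0.30% in post-pubertal and pre-pubertal heifers. ENSBTAG00000016138 ranked 6, with 1.02 ± 0.37% after puberty and 1.29 ± 0.32% before it. ENSBTAG00000021588 and ENSBTAG00000043560 came next, with overall means of 0.821% and 0.422%. ENSBTAG00000014534 and ENSBTAG00000017475 closed the list, with overall means of 0.378% and 0.339%. The first 2 genes kept their own rank in 12 and 11 libraries, and the others in 3 to 8. The first 7 genes were among the 10 most abundant of every library, the eighth in 8 libraries, the ninth in 9 and the tenth in 5. These shares count reads and are not divided by gene length, so they do not rank the genes by number of transcripts.

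**Figure D1:**
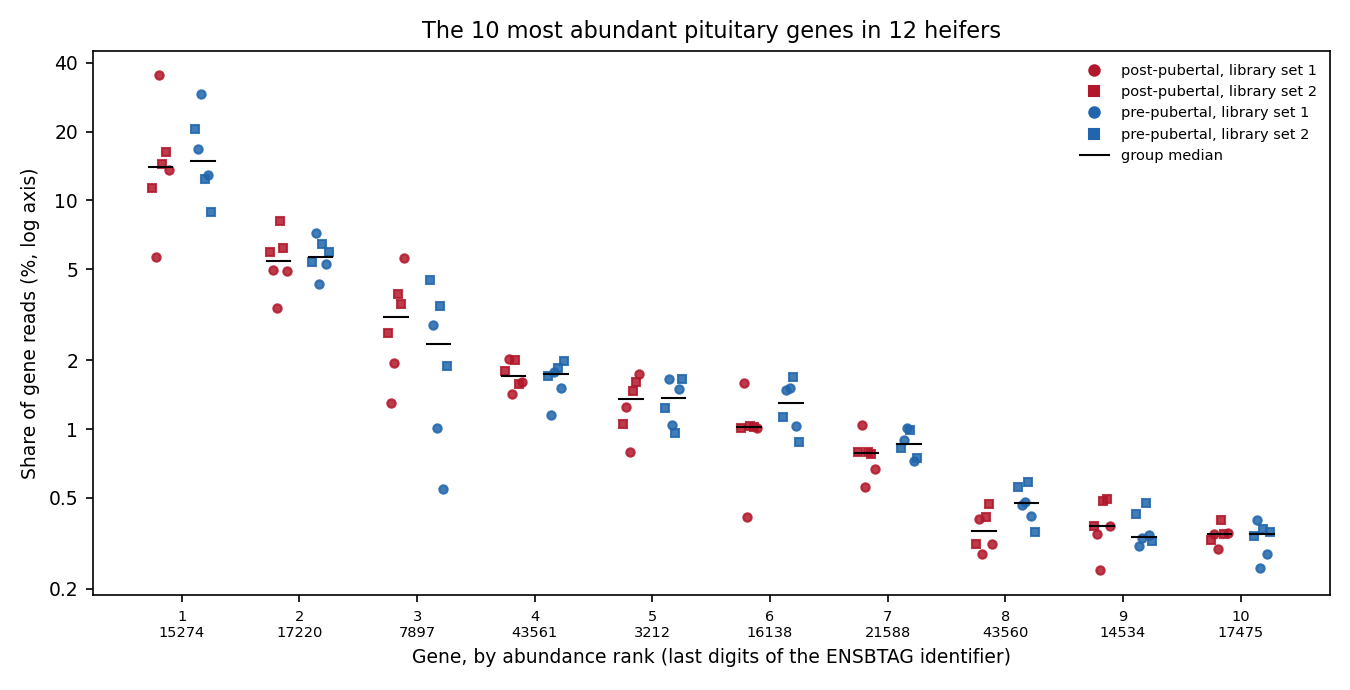
Share of gene reads (percent, log axis) of the 10 most abundant genes in each library, with post-pubertal animals left of pre-pubertal animals for each gene; circles are library set 1, squares set 2 and black bars group medians. The groups overlap for each of the 10 genes, and the first and the third gene spread most, from 5.68% to 35.2% and from 0.549% to 5.58%.

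Together these 10 genes held 30.8 ± 8.54% of the gene reads in post-pubertal and 31.3 ± 6.97% in pre-pubertal heifers (SD, n = 6 each). The 100 genes with the highest mean CPM (counts per M gene reads) over the 12 libraries held 42.0 ± 7.78% after puberty and 42.7 ± 6.56% before it. The number of genes that made up 50% of the reads showed the spread between animals most plainly. It was between 46 (animal 2057) and 709 (animal 2056) in post-pubertal heifers, with a mean of 313 ± 231, and between 76 and 503 in pre-pubertal heifers, with a mean of 282 ± 175. Thinned to the depth of the shallowest library, 4427240 gene reads, the post-pubertal libraries detected 16188 ± 265 genes and the pre-pubertal libraries 16210 ± 181. None of 9 library measures, from depth to concentration, differed detectably by status (exact permutation tests, n = 6 each, adjusted p = 0.916 for each).

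**Figure D2:**
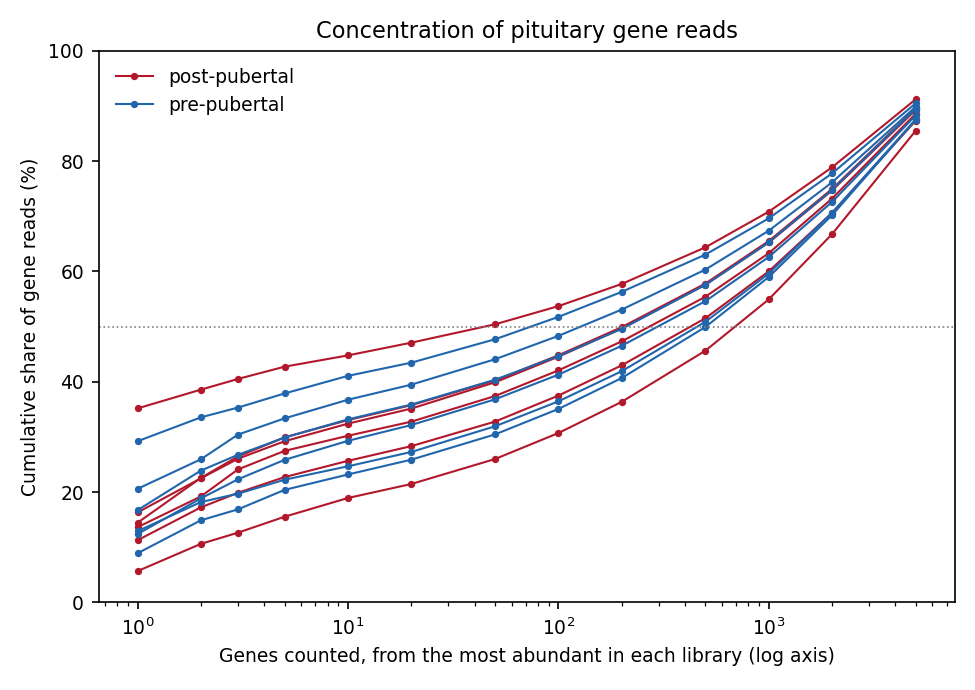
Cumulative share of gene reads (percent) against the number of genes counted from the most abundant downward in each library (log axis), 1 line per animal, post-pubertal in red and pre-pubertal in blue. The dotted line marks 50%, which the most concentrated library reaches with 46 genes and the least concentrated with 709, both post-pubertal.

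The hypothalamus of the same 12 animals showed how far these genes mark the pituitary reads. ENSBTAG00000015274 was at 122 CPM in the hypothalamus of animal 2049 and between 0 and 3.89 CPM in the other 11, whose mean was 0.623 CPM. ENSBTAG00000017220 was at 8.84 CPM in that same library, at most 0.825 CPM in the other 11, and at 0 in 9 libraries. The hypothalamus library of animal 2049 was thus the highest for both leading pituitary genes, and also for ENSBTAG00000007897 (47.3 CPM, against a mean of 18.4 CPM in the other 11) and ENSBTAG00000016138 (3.51 CPM, against a mean of 0.547 CPM). It was the highest by little for ENSBTAG00000003212, at 222 CPM, where the other 11 reached 207 CPM with a mean of 128 CPM. For the remaining genes of the 10, another animal was highest. By contrast ENSBTAG00000043561 was the first gene of the hypothalamus, with 5.70% of its gene reads, and ENSBTAG00000043560 ranked 4 there, with 2.28%. The 10 genes with the highest mean in each tissue held a median of 31.3% of gene reads in the pituitary and 20.4% in the hypothalamus. The median number of genes holding 50% of reads was 246 in the pituitary, with a range of 46 to 709, and 408 in the hypothalamus, with a range of 376 to 545. These tissue values are a description and were not tested.

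No pituitary gene changed between post-pubertal and pre-pubertal heifers at an adjusted p under 0.05. Of 13335 genes tested with edgeR's quasi-likelihood test, 0 passed (0%), and the smallest adjusted p was 0.9999. DESeq2 and limma voom with sample quality weights also called 0. An unadjusted p under 0.05 was found for 203 genes (1.52%) with edgeR, 102 of them higher and 101 lower after puberty, for 217 with DESeq2 and for 335 with voom. Without animals 2054 and 2059 edgeR called 0, with 236 genes at an unadjusted p under 0.05. By comparison, 5% of the genes tested is 667. In bulk tissue such as this, fewer cells of a type and less RNA per cell cannot be told apart.

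Most fitted changes were small. After TMM scaling, a correction for the make-up of each library that centres the changes and so sets much of the balance between directions, 6821 genes were above 0 and 6514 below in post-pubertal heifers; among the 1000 most abundant genes 429 were above and 571 below. The median absolute log2 change was 0.09, or 1.06-fold, and 95% of genes lay under 1.33-fold. A fitted change over 2-fold was found for 39 genes and one over 1.5-fold for 231. The common biological coefficient of variation between animals of a group was 22.5%. In 5 genes (0.0375%) the 2 groups of libraries did not overlap. Post-pubertal levels were above in 4 of them and below in 1, and their log2 changes ran from -0.18 to 0.77. Among this many genes some are set apart by the split of animals alone, so the count is not read as a sign of change.

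Among the 10 most abundant genes, 0 passed the test, 4 had a fitted change above 0 and 6 below, and the median log2 change was -0.03, against 0.00 over all genes tested. For the first gene, ENSBTAG00000015274, the log2 change was -0.02 ± 0.46 (SE), and its 95% interval ran from 0.495-fold to 1.96-fold. The interval of the gene ranked 3, ENSBTAG00000007897, was the widest of the 10, with a log2 change of 0.39 and bounds of 0.631-fold and 2.72-fold. The gene ranked 4, ENSBTAG00000043561, was bounded more tightly, between 0.826-fold and 1.28-fold. Lower fitted levels after puberty with the smallest p of the list were those of ENSBTAG00000043560, at a log2 change of -0.41 (edgeR, unadjusted p = 0.0361, adjusted p = 0.9999), and of ENSBTAG00000016138, at -0.44 (edgeR, unadjusted p = 0.0741, adjusted p = 0.9999). For ENSBTAG00000043560 the scaled level ran from 2812 through a median of 3411 to 4899 CPM in post-pubertal heifers and from 3177 through 5266 to 6122 CPM in pre-pubertal heifers. In 4 pre-pubertal animals it lay above all 6 post-pubertal ones, and the other 2 overlapped with them.

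How large a change could have gone unseen is bounded, gene by gene and under the fit, by the 95% interval. Over this many genes some single intervals can miss. For 9065 genes (68.0%) the whole interval lay inside 1.5-fold in both directions, for 12191 (91.4%) inside 2-fold and for 13265 (99.5%) inside 4-fold, which leaves 70 genes for which a 4-fold change lies within the interval. The bounds lay a median of 0.35 on the log2 scale, or 1.28-fold, either side of the fitted change. With intervals widened so that all 13335 hold together (Bonferroni), 3972 genes (29.8%) stayed inside 2-fold and 10693 (80.2%) inside 4-fold. These bounds apply to an average change between the 2 groups of 6 animals, relative to the scaling of the libraries.

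The bounds were tightest for abundant genes. Of 3602 genes with a mean of 1 to 10 CPM, 76.0% had an interval inside 2-fold, against 97.0% of 8324 genes at 10 to 100 CPM and 97.7% of 1409 genes above 100 CPM. Within the most abundant genes the order turned: 93 of the first 100 and 973 of the first 1000 were inside 2-fold, and 8 of the first 10. The bound farther from no change had a median of 1.37-fold over all genes and a maximum of 37.6-fold, and a median of 1.43-fold and a maximum of 2.72-fold over the 10 most abundant.

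**Figure D3:**
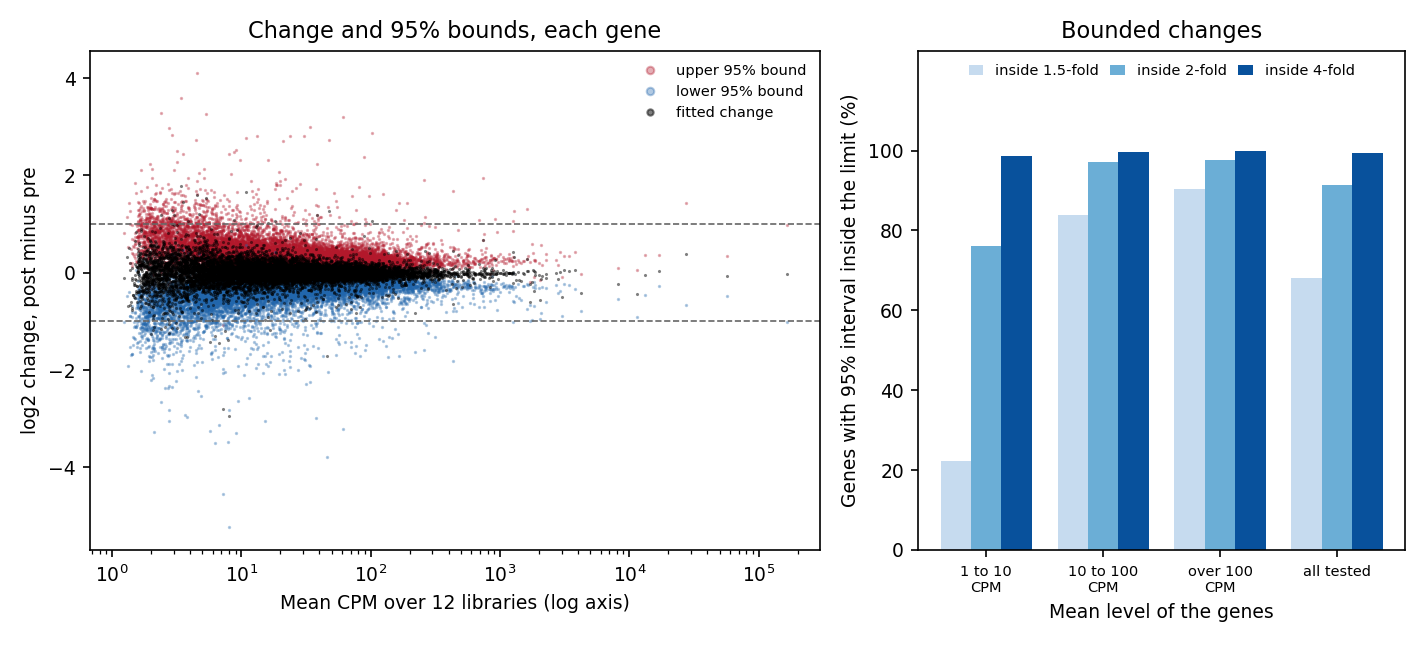
Left, fitted log2 change (post minus pre) of each of 13335 genes in black with its upper (red) and lower (blue) 95% bound, against mean CPM on a log axis; dashed lines mark 2-fold. Right, percent of genes whose 95% interval lies inside 1.5-fold, 2-fold and 4-fold, by mean level; 76.0% of genes at 1 to 10 CPM and 97.7% of those above 100 CPM are inside 2-fold.

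The genes with the smallest unadjusted p, 2 in each direction, are given by library; none passed the threshold. They were taken by p, not by size, and 2 of the 4 had fitted changes under 2-fold. Levels are in CPM after TMM scaling. ENSBTAG00000005697 ran from 5.82 through a median of 6.17 to 7.67 CPM in post-pubertal heifers and from 3.48 through 4.01 to 5.13 CPM in pre-pubertal heifers. It is 1 of the 5 genes in which the groups did not overlap, and its log2 change was 0.62 ± 0.17 (SE; edgeR, unadjusted p = 0.00249, adjusted p = 0.9999). That level rested on 27 to 66 reads per post-pubertal library and 20 to 31 per pre-pubertal library.

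ENSBTAG00000027916 ran from 10.7 through a median of 22.4 to 43.99 CPM in post-pubertal heifers and from 8.94 through 11.9 to 12.5 CPM in pre-pubertal heifers. In 4 post-pubertal animals it lay above every pre-pubertal one, while 2 lay among them, so the spread was wide after puberty and narrow before it. Its log2 change was 1.07 ± 0.30 (SE; edgeR, unadjusted p = 0.00317, adjusted p = 0.9999).

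Of the genes with a lower fitted level after puberty, ENSBTAG00000011584 ran from 15.2 through a median of 23.0 to 30.8 CPM in post-pubertal heifers and from 24.6 through 39.6 to 52.3 CPM in pre-pubertal heifers. In 5 pre-pubertal animals it lay above all post-pubertal ones. Its log2 change was -0.77 ± 0.19 (SE; edgeR, unadjusted p = 0.00118, adjusted p = 0.9999), the smallest p of all genes tested. ENSBTAG00000038128 ran from 6.23 through 10.2 to 14.05 CPM after puberty and from 11.3 through 25.1 to 32.9 CPM before it, a log2 change of -1.19 ± 0.30 (SE; edgeR, unadjusted p = 0.00141, adjusted p = 0.9999). In 4 pre-pubertal animals it lay above all post-pubertal ones, and 2 lay among them.

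**Figure D4:**
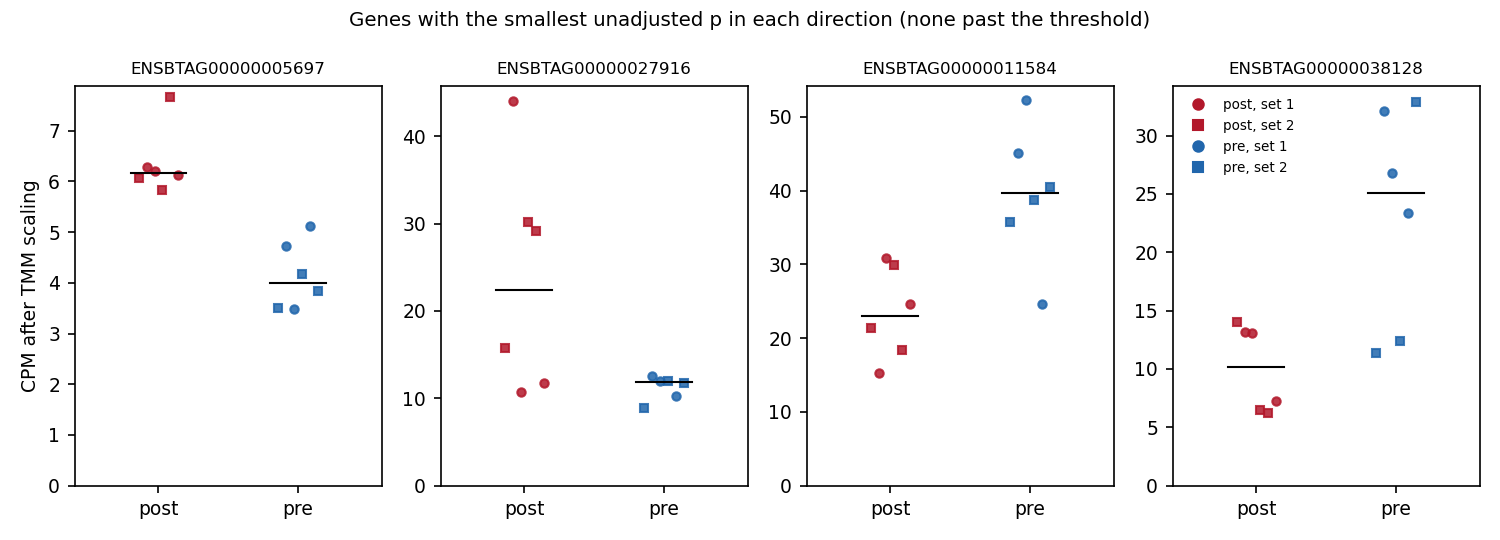
CPM after TMM scaling (linear axes from 0) in each library for the 2 genes with the smallest unadjusted p that were higher after puberty and the 2 that were lower, post-pubertal animals on the left; circles are library set 1, squares set 2 and bars group medians. The groups are apart for ENSBTAG00000005697, with a lowest post-pubertal value of 5.82 and a highest pre-pubertal value of 5.13 CPM, and overlap for the other 3.

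The same 12 animals gave hypothalamus libraries, so the puberty change in the pituitary could be set against that in the hypothalamus. The difference between the 2 changes passed the threshold in 0 of 14502 genes (0%; edgeR with the animal as a replicate block), and 494 (3.41%) had an unadjusted p under 0.05. For 69.8% of genes the 95% interval of this difference lay inside 2-fold. Without the replicate block edgeR called 0, with 537 genes at an unadjusted p under 0.05. DESeq2, fitted with the block kept, called 0, with 462. Without animal 2049, whose hypothalamus library held the most reads of the leading pituitary genes, edgeR with the block called 0, with 388 genes at an unadjusted p under 0.05. The 4 genes above were chosen for their pituitary values, which favours a difference from the other tissue, so their values are a description. ENSBTAG00000005697 had a log2 change of 0.62 in the pituitary and -0.15 in the hypothalamus. ENSBTAG00000038128 had log2 changes of -1.19 in the pituitary and -0.995 in the hypothalamus, whose libraries come from the same animals. In the same order, the values were 1.07 and 0.72 for ENSBTAG00000027916 and -0.77 and -0.37 for ENSBTAG00000011584. The hypothalamus changes of all 4 genes missed the threshold.

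The range between animals differed from gene to gene, and only a small share of genes ranged widely. Over genes, the median range between the lowest and highest library was 1.90-fold; 7421 genes (55.7%) ranged at most 2-fold and 278 (2.08%) at least 8-fold. Status took a mean of 5.89% of a gene's variance and library set a mean of 9.79%, where a term unrelated to the values takes 9.09% on average over 12 libraries. Spearman's rho between 2 libraries, across genes, which are not independent replicates, had a median of 0.962 within post-pubertal pairs, 0.961 within pre-pubertal pairs and 0.965 between the 2 statuses, so the median between statuses was no lower than that within either one.

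The main axes of variation were taken as principal components of log2 CPM, which use no label. The first 4 axes held 21.1%, 15.6%, 11.98% and 8.53% of the variance, 57.2% in all. Post-pubertal and pre-pubertal scores overlapped on each. On axis 1 the scores ran from -28.4 (animal 2057) to 35.3 (animal 2047) in post-pubertal heifers and from -24.1 (animal 2048) to 17.8 (animal 2046) in pre-pubertal heifers. On axis 2 they ran from -17.7 (animal 2059) to 23.2 (animal 2056) after puberty and from -23.4 (animal 2049) to 30.3 (animal 2060) before it. No difference by status was detected on axes 1 to 4 (exact permutation p = 0.732, 0.773, 0.840 and 0.688, n = 6 each, adjusted p = 0.989 for each). Nor was one detected between library sets (exact permutation p = 0.214, 0.803, 0.857 and 0.723, adjusted p of at least 0.902). All 80 p-values on the axes were adjusted together.

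Axis 2 followed the make-up of the reads. Its score rose with the percent of reads in no annotated gene (Pearson's r = 0.90, permutation p = 4e-05, adjusted p = 0.0032; Spearman's rho = 0.78, permutation p = 0.00414, adjusted p = 0.0301; n = 12). The relation was present without the 2 animals farthest from the median, 2047 and 2060 (r = 0.88), in set 1 (r = 0.92), in set 2 (r = 0.93), among post-pubertal heifers (r = 0.94) and among pre-pubertal heifers (r = 0.95). The score fell with the share of the 10 most abundant genes (r = -0.81, adjusted permutation p = 0.0166; rho = -0.79, adjusted p = 0.0272) and was higher where more genes were needed to hold 50% of reads (r = 0.87, adjusted permutation p = 0.00613; rho = 0.83, adjusted p = 0.0154). Without the 2 animals farthest from the median of each measure these were -0.92 (2057 and 2056 left out) and 0.82 (2056 and 2060 left out). Within sets the share of these 10 genes gave -0.87 in set 1 and -0.94 in set 2, and the number of genes gave 0.91 and 0.96. With the share of the first gene alone the relation did not pass (r = -0.63, adjusted permutation p = 0.138; rho = -0.73, adjusted p = 0.0534; -0.81 without animals 2057 and 2049, -0.78 in set 1 and -0.82 in set 2). The shares of abundant genes and the number of genes holding 50% of reads come from the same gene counts as the scores. They are thus not separate measurements, and their p-values are not independent support for the axis. Library make-up and expression moved together on this axis, and the part of either in the other was not tested.

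**Figure D5:**
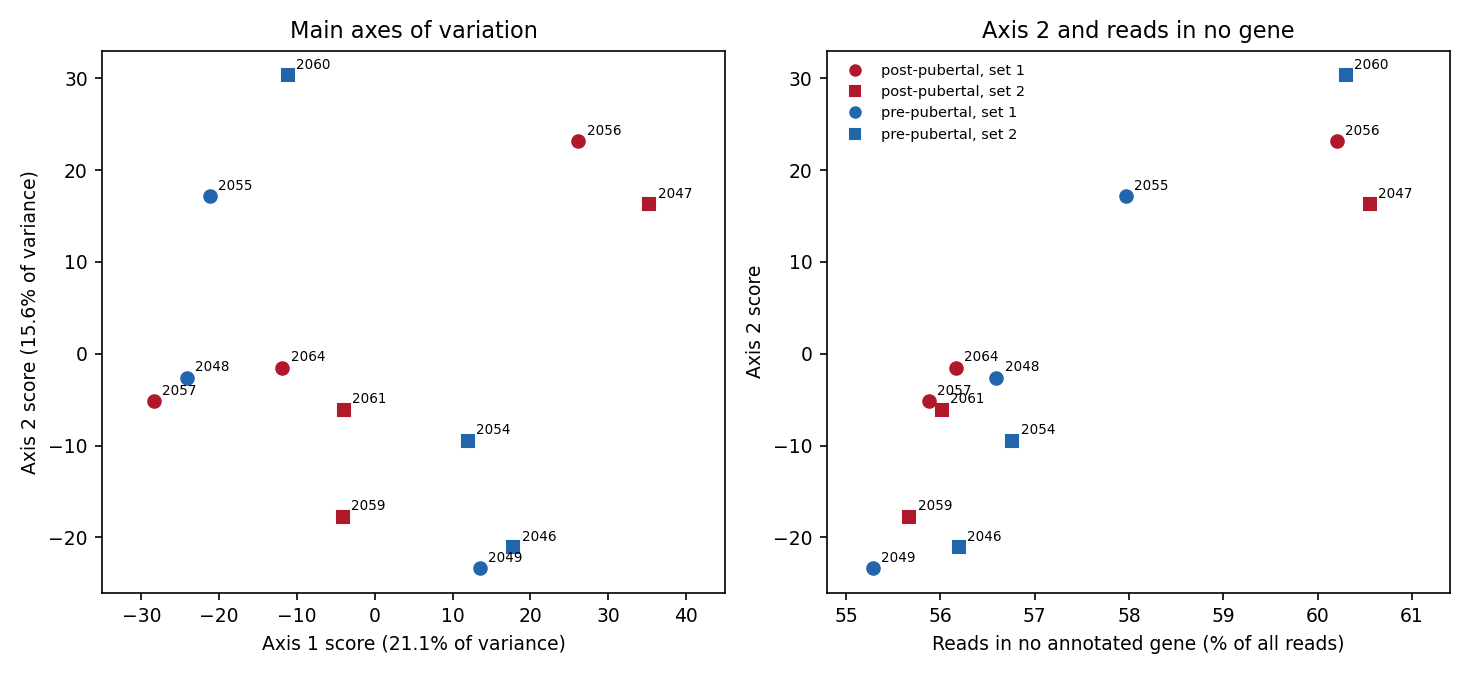
Left, scores of the 12 pituitary libraries on axes 1 and 2; right, axis 2 score against the percent of all reads in no annotated gene; post-pubertal in red, pre-pubertal in blue, circles for library set 1, squares for set 2, animal numbers beside the points. The statuses intermix on both axes, and the 3 libraries with over 60% of reads in no gene (2047, 2056 and 2060) lie at the upper right of the second panel.

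Axis 1 rose with the number of gene reads, less closely without 2 animals. Pearson's r was 0.72 (adjusted permutation p = 0.0303), Spearman's rho was 0.73 (adjusted permutation p = 0.0534), and r was 0.50 without animals 2047 and 2055, the deepest and the shallowest library; within sets r was 0.61 and 0.82, among post-pubertal heifers 0.70 and among pre-pubertal heifers 0.76. Many genes made up these axes: 683 genes (5.12%) correlated with axis 1 beyond 0.8 in either direction, 410 (3.07%) with axis 2, 79 with axis 3 and 15 with axis 4. No single gene gave more than 0.430% of axis 1 or 0.648% of axis 2. Correlations of the 10 most abundant genes with axis 2 ran from -0.78 to -0.16, with 6 of 10 beyond 0.5 in size, against 26.4% of all genes tested. Their shared sign is not separate from the fall of this score with their summed share. The share of all genes with a negative sign was not counted. Beyond 0.8, 243 genes were positive on axis 2 and 167 negative. On axis 1 the 10 most abundant genes ran from -0.54 to 0.41, with 1 of 10 beyond 0.5, against 34.7%. ENSBTAG00000015274 itself gave 0.0245% of axis 1 and 0.139% of axis 2.

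The gene with the largest part in axes 3 and 4 was close to on or off by animal, and was singled out after its values were seen. ENSBTAG00000020564 had at most 2 reads in 5 libraries and more than 100 in the other 7. In post-pubertal heifers it had 1 read in animal 2047, 1441 in 2056, 2 in 2057, 152 in 2059, 855 in 2061 and 0 in 2064. In pre-pubertal heifers it had 1 read in animal 2046, 0 in 2048, 183 in 2049, 408 in 2054, 1040 in 2055 and 246 in 2060. Low and high animals occurred in both groups. Its fitted log2 change was 0.00, with a 95% interval from 0.108-fold to 9.25-fold, so the data bound its puberty change hardly at all.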

How the data were processed

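The pituitary and hypothalamus files hold counts of reads per gene as deposited by the authors, 1 file per library. The 5 entries that name no gene, 62.3% to 68.4% of all pituitary reads, were left out. The genome build was UMD3.1, per the submitters' processing notes. Libraries were made with a TruSeq kit and read as paired ends, per the labels' protocols. Not given in the sources used here are the aligner, the counter, strand use and gene models, so overlapping, antisense or duplicated genes may share reads.

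Status was taken from the labels. Changes were fitted with edgeR 4.0.16 in R 4.3.3 (TMM, filterByExpr, robust quasi-likelihood F test, two-sided, Benjamini-Hochberg over all genes tested, threshold 0.05), without covariates. The 13335 genes tested held 99.7% to 99.8% of gene reads. Intervals of 95% used the fitted weights and moderated dispersion. Axes were principal components of log2 CPM (prior count 2, genes centred). Correlations were tested with 100000 resamples. DESeq2 1.42.0, limma 3.58.1 and sva 3.50.0 were alternatives, with other scalings, filters, terms and samples left out; the term for reads in no gene was added after seeing the data. The fit was tested on simulated data.

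Each library of a tissue is a different animal by the labels, and the comparison with the hypothalamus is paired by animal number. Over 12644 genes, deviations of an animal's 2 tissues from their group means had a median r of 0.113 (0.0265 to 0.266, above 0.1 in 7 of 12), against -0.00302 between animals. An animal's own pairing exceeded its best pairing with another animal in only 6 of 12, so these values do not settle the pairing of each animal. No 2 libraries of a group were duplicates: over 30 pairs the lowest mean chi-square per gene was 9.99, where sampling noise gives 1. Pairs across groups were not part of this check. Genes named are the 10 with the highest mean CPM and, as none passed, the 2 smallest unadjusted p in each direction. Lists of hormone and cell type genes could not be used, since no identifier could be named. The members and lists were chosen with earlier results of these data known.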

Additional observations from a re-analysis of the deposited data

Results flagged for a closer look

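In the post-pubertal group 1 library stood far from the other 5. The first gene, ENSBTAG00000015274, took 35.2% of the gene reads in animal 2057, with the nearest other post-pubertal library at 16.3%. As a level, the same gene was at 351733 CPM in that library and at 163126 CPM in the nearest. Both values describe 1 measurement. Of 54 groups of values looked at in this way, 2 stood out, where chance flags about 1 in 20 groups. The value moves the mean share after puberty, as given with that result, and edgeR called 0 genes with and without the library, with 291 genes at an unadjusted p under 0.05 without it and 203 with it.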

How the results depend on the processing

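The count of genes changed was 0 under all 25 alternatives tried, with 110 to 450 genes at an unadjusted p under 0.05, including DESeq2 (217), voom (335), 3 surrogate variables as terms (383), the percent of reads in no gene as a term (234), library set as a term (206), and without animals 2054 and 2059 (236). Genes with a 95% interval inside 2-fold numbered 11713 to 12354 over 21 alternatives, 63.9% to 92.2% of those tested. The lowest count, 11713 (87.7% of 13361 genes tested), was without animals 2054 and 2059, and the lowest share was without a filter on low counts. The difference in the first gene's share ranged from -4.52 to 1.78 points when 1 animal was left out, and was above 0 without post-pubertal 2047 or 2056 or pre-pubertal 2046 or 2049 (0.255, 1.37, 0.0524 and 1.78). The first axis held 18.6% of the variance over the 500 most variable genes, 23.6% after a variance stabilising transformation, and 20.3% to 22.8% when 1 animal was left out; the cause was not tested. The comparison with the hypothalamus gave 0 genes in 14 alternatives, with or without the replicate block. Of 340 values of named genes under alternatives, 339 moved by less than the SD between single animals of a group, and the exception was ENSBTAG00000017220. That limit is wide for a difference of group means, so staying within it says little about stability. Within it, the log2 change ran from -0.555 to 0.282 for ENSBTAG00000015274 and from 0.0341 to 0.936 for ENSBTAG00000007897. Bounds were wider for the low genes: the 95% bounds lay a median of 1.49-fold either side of the fitted change at 1 to 10 CPM and 1.19-fold above 100 CPM. The part of depth in this was not tested.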

Other observations

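The hypothalamus and pituitary libraries of an animal did not pass the threshold for varying together on their main axes. Between pituitary axes 1 and 2 and hypothalamus axes 1 and 2, the largest Pearson's r was 0.45 (permutation p = 0.143, 12 animals, adjusted p = 0.570 over 4 relations with both measures), between the first axis of each tissue. Spearman's rho for that pair was 0.34 (permutation p = 0.286, adjusted p = 0.572). Without the 2 animals farthest from the median r was -0.09, so the value rests on them, and within library sets it was 0.29 and 0.85. The largest rho was -0.53, between pituitary axis 2 and hypothalamus axis 1 (permutation p = 0.0805, adjusted p = 0.570), where r was -0.37 (permutation p = 0.233, adjusted p = 0.572). For that pair r was -0.72 without the 2 farthest animals, -0.78 in set 1 and 0.07 in set 2. Between axis 2 of both tissues r was 0.04 (permutation p = 0.904) and -0.70 without the 2 farthest animals, with 0.52 in set 1 and -0.19 in set 2, so the values changed with the animals included.

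The spread between animals of a group was of like size in both tissues for single genes, with a median biological coefficient of variation of 19.2% in the pituitary and 19.2% in the hypothalamus over 12644 genes tested in both. The common value was 22.5% in the pituitary and 26.5% in the hypothalamus. Of the 13335 genes tested in the pituitary 91.4% had a puberty change bounded inside 2-fold, and of the 13713 tested in the hypothalamus 87.0%. These are different sets of genes. Over the 12644 genes tested in both, the pituitary bounds were slightly wider. They lay a median of 0.342 on the log2 scale either side of the fitted change, against 0.325 in the hypothalamus.

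On axis 1 the relation to library make-up ran opposite ways within the 2 statuses. Its r with the number of genes detected at equal depth was 0.95 among the 6 post-pubertal animals and -0.54 among the 6 pre-pubertal animals, and the pooled r was 0.42 (permutation p = 0.171, adjusted p = 0.807). The difference between the 2 statuses was picked out after its values were seen and was not tested.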
